A study of Mus musculus with 2 samples.

Results

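The miRNA genes described here are the 118 genes whose GENCODE mouse symbol is Mir followed by a number from 3000 to 5999, out of 1973 genes counted in each library. miRBase, the registry of microRNAs, gives numbers in order of submission, so these genes entered it late. The genes of chromosome 12 between positions 109500000 and 109800000 (mm10) are left out by the rule, which removes 4 genes. Another 17 genes of the number range in the annotation used for the names have no line in the tables and were not analysed here. The rule uses gene symbols and positions and no measured value, but it was set with earlier results of these data known.

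Small RNA was sequenced from kidneys of mouse embryos of strain B6NCrl at 15.5 days, with pooled males and females and no treatment or altered allele named. Replicate 1 came from a pool of 78 embryos and replicate 2 from a pool of 62 embryos. The size range was below 30 nt, and there was 1 group, so the libraries can be compared with each other only. Reads on a gene's own strand came to 7434182 in replicate 1 and 5863293 in replicate 2. Levels are given as CPM, a gene's count per 1000000 of those totals. For a gene without a read, the limit is 3 counts, which is 0.404 CPM in replicate 1 and 0.512 CPM in replicate 2 and covers counting error only. All 8 kidney miRNA genes that were checked were detected, with a summed level of 261447 and 229631 CPM. Most of that sum was Mir10a, at 167241 and 140739 CPM, and Mir10b, at 65318 and 57839 CPM. Lowest on the list were Mir192 at 191.8 and 118.5 CPM, Mir194-2 at 78.3 and 68.6 CPM, and Mir204 at 233.9 and 167 CPM. Mir30a, Mir200c and Mir429 lay between. The genes checked for other cells were present too, from 10.2 and 12.8 CPM for the leukocyte Mir150 to 49708 and 47805 CPM for the endothelial Mir126a. That range leaves out the neural genes Mir9-3, at 2.56 and 1.02 CPM, and Mir124a-1, at a mean of 0 CPM. Mir122, which marks liver, stood at 319 and 629 CPM, and Mir206, which marks skeletal muscle, at 959 and 659 CPM. Whether these cells contributed reads of the members was not tested, and in whole kidney fewer cells of a type and less RNA per cell cannot be told apart.

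A miRNA is cut from a hairpin in a longer transcript, first by Drosha in the nucleus and then by Dicer in the cytoplasm. The resulting short strand is loaded into an Argonaute protein, and bases 2 to 8, the seed, pair with target mRNAs. Many hairpins lie inside introns or exons of host genes and are transcribed with them. In a mirtron the hairpin is the spliced intron itself, so splicing replaces the cut by Drosha.

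The mature sequences of the next highest members after Mir5099, which is named only, are shown first, since the results turn on these genes. They are RefSeq's, on GRCm38.p6, written 5′ to 3′ with the seed in capitals. The tables count reads per gene, so a count cannot be divided between the arms of a hairpin.
miR-3074-5p: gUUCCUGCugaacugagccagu
miR-3102-5p: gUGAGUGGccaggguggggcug
miR-3102-3p: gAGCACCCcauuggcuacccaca
miR-3105-5p: aGAGCAAGcccguaagcagcgu
miR-3105-3p: aCUGCUUAugagcuugcacucc
miR-3099-5p: cCAGCUUCcuuccagcccuug
miR-3099-3p: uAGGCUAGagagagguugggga
miR-3080-5p: uGAAGCGCcuguucuuggau
miR-3080-3p: uCCUCGGGcaaagcgcuugaca
miR-3058-5p: uCAGCCACggcuuaccuggaaga
miR-3058-3p: uUCCUGUCagccgugggugcc
miR-3066-5p: uUGGUUGCuguagauuaaguag
miR-3066-3p: cACUUAAUagaccgcaaccugc
miR-3061-5p: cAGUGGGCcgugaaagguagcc
miR-3061-3p: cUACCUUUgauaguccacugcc
miR-3057-5p: aUUGGAGCugagauucugcgggau
miR-3057-3p: uCCCACAGgcccagcucauagc

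The members were mostly low in embryonic kidney, and a few genes carried most of their reads. Of the 118 members, 34 (28.8%) were detected, meaning at least 1 CPM in both libraries, against 20% (394) of all 1973 genes. That background includes 852 genes with other symbols, mostly Gm names, of which 2.11% were detected. Of the 920 other genes named Mir and a number, 339 (36.8%) were detected, a larger share than of the members. No own-strand read was found for 39 members (33.1%), against 63.1% of all genes and 36.5% of the other numbered genes. The median member stood at 0.372 CPM, the median over all genes was 0 CPM, and that over the other numbered genes was 0.323 CPM. Among detected genes the median level was 3.84 CPM in the 34 detected members and 100.1 CPM in the other 360 detected genes with a symbol. Members held 3395 reads in replicate 1 and 2809 in replicate 2, which is 0.0457% (exact Clopper-Pearson 95% interval 0.0441 to 0.0472) and 0.0479% (0.0462 to 0.0497) of own-strand gene reads. The mean share was 0.0468% ± 0.00158 (SD, n = 2).

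Set beside genes of other number ranges, the members' share detected was nearest to that of numbers from 1000 to under 3000. Genes numbered under 300 were detected in 155 of 191 cases (81.2%), those from 300 to under 1000 in 131 of 274 (47.8%) and those from 1000 to under 2000 in 26 of 78 (33.3%). From 2000 to under 3000 there were 4 genes, 1 of them detected (25%). Of the genes numbered 6000 or more, 26 of 373 (6.97%) were detected. Within the members the detected genes were unevenly spread over the numbers. From 3000 to under 3200, 19 of 46 members (41.3%) were detected, and 6 had no read. From 3200 to under 3600 there were 2 detected of 17, from 3600 to under 4000 there was 1 of 7, from 5000 to under 5200 there were 8 of 33, and from 5200 upward there were 4 of 15. No member had a number from 4000 to under 5000.

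**Figure D1:**
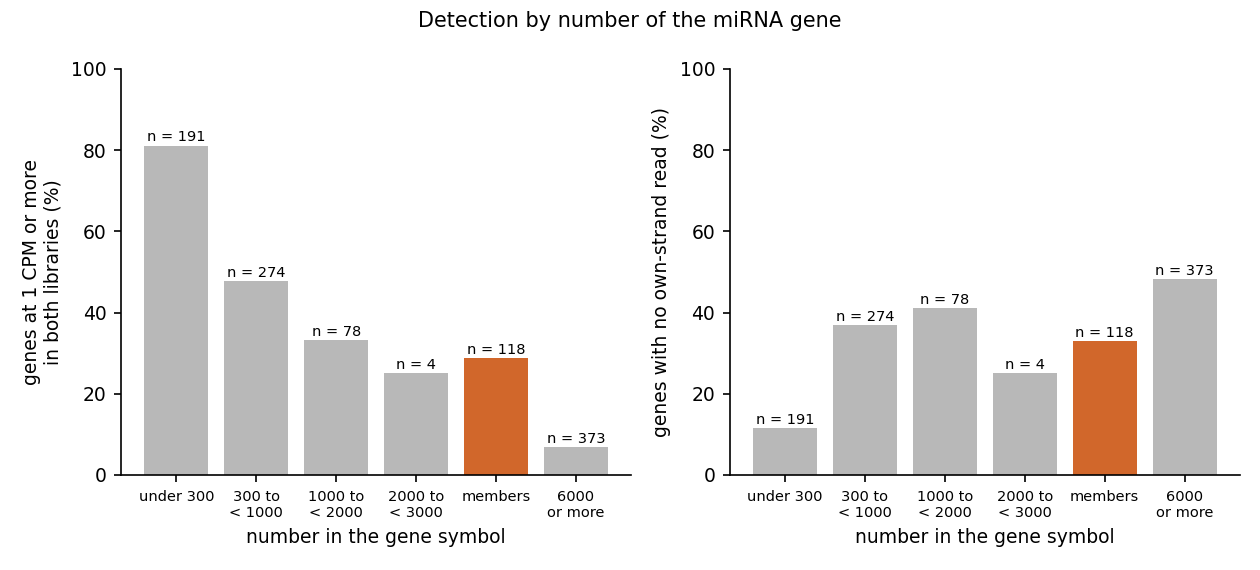
Percent of genes at 1 CPM or more in both libraries (left) and percent with no own-strand read (right), by the number in the gene symbol, with the number of genes above each bar and the members in orange. The members reach 28.8% detected and 33.1% without a read.

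The most abundant member, Mir5099, is an intergenic gene on chromosome 12 (chr12:36816205-36816278, plus strand, GRCm38). It had 827 reads in replicate 1 and 779 in replicate 2, or 111 and 133 CPM (mean 122 ± 15.3 SD, n = 2), with exact intervals of 104 to 119 and 124 to 142.5 CPM. It ranked 168 among the 1973 genes, and it was the single member above 100 CPM in both libraries. Mir5099 alone held 24.4% and 27.7% of the reads of all members. The 3 highest members held 51.8% and 56.1%, and the 20 highest held 88.6% and 89.6%.

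Mir3074-1 lies in an intron of Fancc, a gene of the Fanconi anaemia DNA repair pathway (chr13:63301199-63301283, minus strand). Its counts were 538 and 389, or 72.4 and 66.3 CPM. Mir3102 lies in the protein-coding gene Arhgef17 (chr7:100882306-100882409, minus strand). Its counts were 395 and 407, or 53.1 and 69.4 CPM. The order of these genes was not stable: Mir3074-1 was above Mir3102 in replicate 1 and below it in replicate 2. Both were below Mir5099 in each library and above every other member.

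Another 5 members reached 10 CPM in both libraries, and all of them lie in introns of protein-coding genes. Mir3105, in an intron of the synaptic scaffold gene Shank2, had 250 and 136 reads, or 33.6 and 23.2 CPM. Mir3099, in an intron of the imprinted ubiquitin protease gene Usp29, had 159 and 140 reads, or 21.4 and 23.9 CPM. These too changed places between the libraries. Mir3080, in an intron of Tcf20, a transcriptional coregulator, had 122 and 82 reads. Mir3058, in an intron of Nudt4, a phosphohydrolase of inositol pyrophosphates, had 99 and 84 reads. Mir3066, in an intron of the nucleolar protein gene Nol10, had 93 and 78 reads. Their mean levels were 15.2 ± 1.72, 13.8 ± 0.714 and 12.9 ± 0.561 CPM (SD, n = 2), and Mir3080 was above Mir3058 in replicate 1 and below it in replicate 2.

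The next members stood between 3 and 12 CPM on average. Mir3061, in an exon of Ppp2ca, which encodes a catalytic subunit of a major serine/threonine phosphatase, had 116 and 48 reads. Mir3057, within an exon of some transcript of the adaptor gene Apba3 and across an intron end of another, had 45 and 74 reads. The former was lower and the latter higher in replicate 2. Mir5113, in an exon of Tnrc6b, a silencing partner of Argonaute, had 55 and 50 reads. Mir3064, within an exon of some transcript of Ddx5, an RNA helicase that works with Drosha, had 49 and 53 reads. Mir5113 and Mir3064 had mean levels of 8.0 ± 0.80 and 7.8 ± 1.73 CPM (SD, n = 2). Below them came the intergenic Mir3962 with 66 and 27 reads, Mir3475 with 36 and 29, and Mir5126 with 26 and 33. The intronic Mir3081 (in Boc, a hedgehog co-receptor) had 21 and 30 reads, Mir3075 (in Zmiz1) had 32 and 21, Mir3097 (in Rgs12, a regulator of G protein signalling) had 25 and 24, and Mir3086 (in Hspa12a) had 25 and 21. The intergenic Mir5626 closed the 20 highest with 30 and 12 reads. The Mir5126 hairpin lies opposite Dner and was the member richest in G and C, at 83.1%, with the mature sequence below (seed in capitals).
miR-5126: gCGGGCGGggccgggggcgggg

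**Figure D2:**
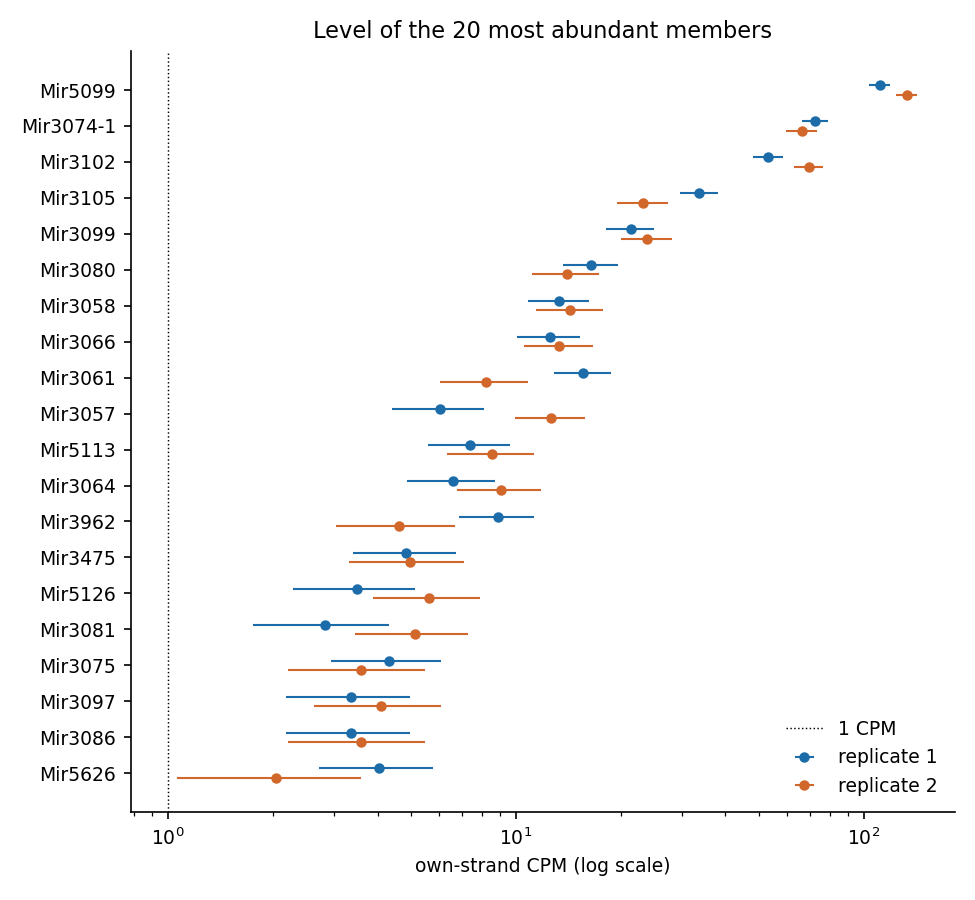
Own-strand CPM on a log scale of the 20 members with the highest mean level, in replicate 1 (blue) and replicate 2 (orange), with exact 95% intervals for counting error as bars. Mir5099 is at 111 and 133 CPM, and Mir5626 is at 4.04 and 2.05 CPM.

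The threshold of 1 CPM passed through a dense range of low counts. Just inside it were Mir5132 at 1.21 and 1.02 CPM, Mir5101 at 1.61 and 1.02 CPM, and Mir3098 at 1.21 and 1.02 CPM. Just outside it were Mir3095 at 1.08 and 0.853 CPM, Mir3079 at 0.942 and 1.19 CPM, and Mir3094 at 0.942 and 2.05 CPM. Of the 84 members that were not detected, 45 had at least 1 read.

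Most members lie within another gene on their own strand. This holds for 87 of 118 (73.7%), against 55.0% of the other genes with a symbol and 70.1% of the other numbered genes, by the GENCODE M21 annotation. The host is protein-coding for 83 members. An exon overlapped 34 hairpins, 53 lay in introns, and 31 were intergenic on their own strand, of which 14 lay opposite a gene. Detected members made up 14 of 34 in exons, 15 of 53 in introns and 5 of 31 between genes. The other genes with a symbol had the same order, with 94 of 309 (30.4%) detected in exons, 155 of 667 (23.2%) in introns and 111 of 800 (13.9%) between genes. For the members, no read was found for 6, 19 and 14 of them. The median level was 1.06 CPM in exons, 0.494 CPM in introns and 0.135 CPM between genes. These are counts and medians of the groups and were not tested against each other.

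**Figure D3:**
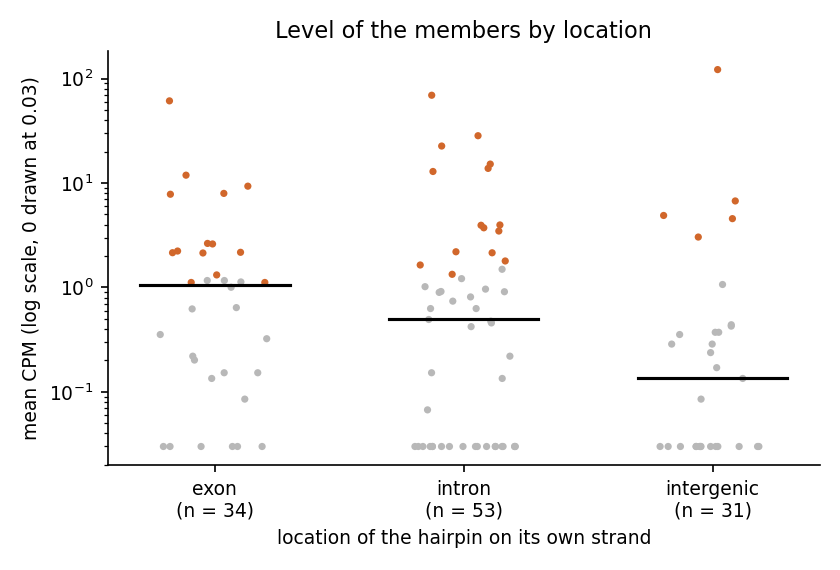
Mean CPM of each member on a log scale by the location of its hairpin, with 0 drawn at 0.03, detected members in orange and the others in grey. Black bars are the medians, 1.06 CPM in exons, 0.494 in introns and 0.135 between genes.

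The exon class is mixed. In 23 of the 34, an exon of some transcript covered the whole hairpin, and 10 of these were detected. In the other 11 the hairpin crossed an exon edge, and in 8 the overlap was at most 15 nt, as with Mir3076, which shares 1 nt with a coding exon of the transketolase gene Tkt. For 3 members (Mir3102, Mir3113 and Mir3473c) the exon belongs only to a transcript typed as retaining an intron. Without such transcripts 31 members are in exons and 56 in introns. A coding exon was overlapped by 16 members, and for 9 of them no exon of the host covered the whole hairpin. Of the rest, Mir3082, Mir3572 and Mir5132 are covered whole only by transcripts that retain an intron. Without such transcripts they share 1, 15 and 6 nt with an exon.

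2 members fill an intron from end to end. The Mir3102 hairpin is identical to a 104-nt intron of Arhgef17, and the Mir3547 hairpin to an 88-nt intron of Baiap3, a gene of regulated exocytosis (chr17:25245551-25245638, minus strand). They are printed as the GENCODE transcripts give them, 5′ to 3′, with the RefSeq mature sequences in capitals. Both begin with GT and end with AG, the bases at the ends of most introns.
Mir3102 hairpin: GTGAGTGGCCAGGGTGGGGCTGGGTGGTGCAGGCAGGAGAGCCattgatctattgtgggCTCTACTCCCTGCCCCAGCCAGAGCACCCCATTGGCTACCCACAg
Mir3547 hairpin: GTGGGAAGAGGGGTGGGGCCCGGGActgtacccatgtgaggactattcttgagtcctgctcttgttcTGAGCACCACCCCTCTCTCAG

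RefSeq lists 4 mature sequences for Mir3102, an outer pair and an inner pair that lie end to end on each arm, so that capitals run on without a break. Mir3102 had 395 and 407 reads as given above. Mir3547 had 5 and 8 reads, or 0.673 and 1.36 CPM, and was not detected by the threshold. Their mean levels were 61.3 ± 11.5 CPM and 1.02 ± 0.489 CPM (SD, n = 2), from reads below 30 nt. Mir3062 missed the limit of 5 nt by little: its hairpin of 105 nt covers the whole 97-nt intron of the purine synthesis gene Pfas and reaches 6 nt into the exon before it and 2 nt into the exon after it. Mir3062 had 19 and 16 reads.

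Hairpins may also share a single end with an intron. In 14 members (11.9%), Mir3102 and Mir3547 included, the 3′ end of the hairpin lay within 5 nt of the 3′ end of an intron, where the spliceosome cuts. The share was 10.7% of the other genes with a symbol, 20.2% of the other numbered genes, 0% of genes numbered under 300 and 47.7% of genes numbered 6000 or more. 11 of the 14 have numbers from 3000 to under 3200. Of the 14, 5 were detected (Mir3102, Mir3064, Mir3097, Mir3062 and Mir3076) and 4 had no read. Mir3064 ends 1 nt past a 737-nt intron of Ddx5, and Mir3097 ends exactly with a 709-nt intron of Rgs12. Mir5617 has the reverse arrangement, with its 5′ end at the start of a 92-nt intron of the synapsin gene Syn1.

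**Figure D4:**
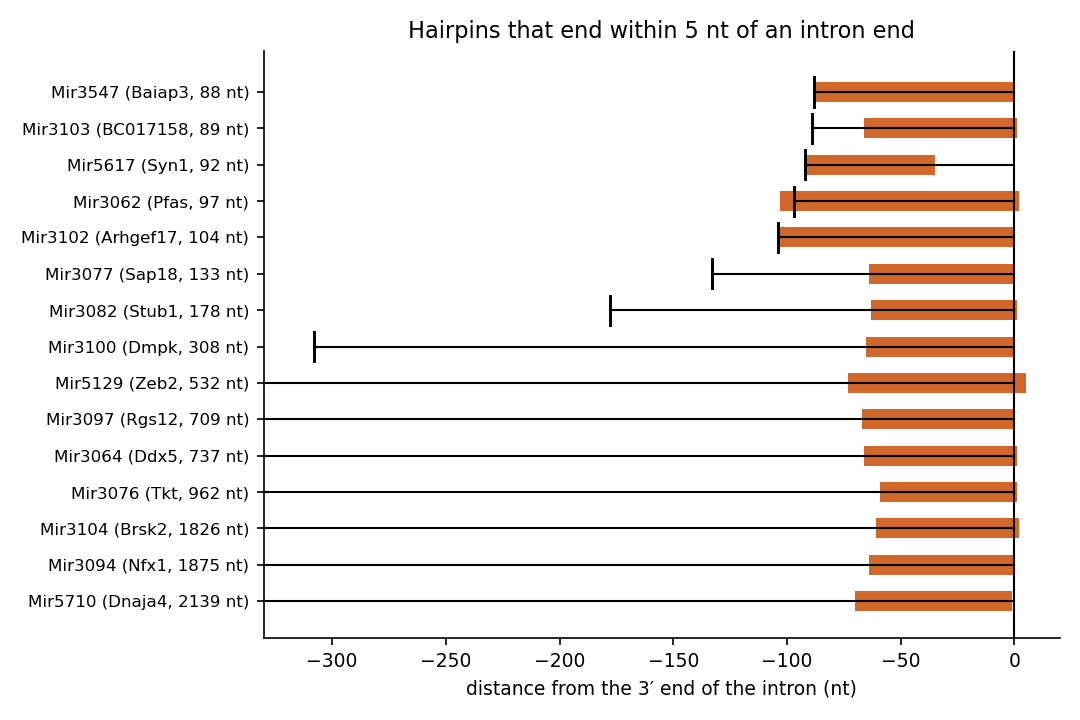
Hairpins (orange) of the members that end within 5 nt of an intron end, drawn against the intron (black line, with a tick at its start where it lies in view), with the host gene and intron length in nt at the left. The x axis is the distance in nt from the 3′ end of the intron, and the hairpins of Mir3102 and Mir3547 span the whole intron.

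Mir3074-1 is the one member with an appreciable number of reads on its opposite strand. There were 514 such reads in replicate 1 and 363 in replicate 2, which is 48.9% (exact Clopper-Pearson 95% interval 45.8 to 51.9) and 48.3% (44.7 to 51.9) of the reads of both strands. They were 99.2% and 99.7% of the opposite-strand reads of all members, and no other member had more than 2 in replicate 1 or 1 in replicate 2. In the annotation the opposite strand holds Mir24-1, an early-numbered miRNA gene that has no line in the tables and was not analysed here. The gene 2010111I01Rik lies on that strand too. The mature sequences of both strands are shown because they overlap by 20 nt as base-paired complements (seeds in capitals).
miR-3074-5p: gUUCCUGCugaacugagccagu
miR-24-3p: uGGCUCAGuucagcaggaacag
miR-24-1-5p: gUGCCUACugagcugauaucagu

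Each of the sequences miR-3074-5p and miR-24-3p is present in 2 genes, here and at the paired locus of Mir3074-2 and Mir24-2 on chromosome 8, while miR-24-1-5p is in 1. Mir24-2 had 1048 and 887 reads on its own strand. Reads that fit several places were set apart in the deposited tables, 27.1% and 26.6% of all reads, so reads of the shared sequences may be missing from both loci. Their part in the values was not tested. Counted without regard to strand, Mir3074-1 rises from 69.4 to 131.9 CPM.

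Mir3962 carries a stretch of another, very abundant miRNA. Its mature sequence of 20 nt shares 17 nt with let-7g-5p, shifted so that its base 1 matches base 3 of let-7g-5p (shared run in capitals).
miR-3962: AGGUAGUAGUUUGUACAuuu
let-7g-5p: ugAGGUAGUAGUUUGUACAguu
Mirlet7g, the let-7g gene, stood at 52957 CPM against 6.74 ± 3.02 CPM (SD, n = 2) for Mir3962. The source of the Mir3962 reads was not tested.

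Some members share sequence with miRNA genes elsewhere in the GENCODE M21 annotation, counted here or not. A stretch of 20 nt shared with such a gene, on either strand, was found in 17 members (14.4%). The share was 51.4% of the other genes with a symbol and 22.1% of the other numbered genes. The rest of the genome was not searched for such stretches. Whole RefSeq mature sequences of the members were looked for in GENCODE M21 transcripts of genes elsewhere, and 7, from 7 members, were found. Of these members 2 were detected and 5 had no read. Of the 17, Mir3074-1 at 69.4 CPM and Mir3098 at 1.12 CPM were detected and 11 had no read, and of the 101 others, 32 were detected and 28 had no read. Among the other genes with a symbol, 89 of 912 that share a stretch were detected (9.76%), and 271 of 864 that do not (31.4%). The Mir3470, Mir3471 and Mir3473 families have 11 members here, of which 0 were detected and 9 had no read. The highest of them, Mir3473d, had 3 and 5 reads, or 0.404 and 0.853 CPM. Of these 11, 10 share a stretch of 20 nt and Mir3473g does not. Since reads that fit several places were set apart, a low value of those 10 cannot be told apart from reads lost in that step. Whether Mir3473g lost reads there was not tested.

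RefSeq has mature sequences for 109 members, 168 sequences in all. Mir5099, Mir3079, Mir3106, Mir3470a, Mir3471-2, Mir3078 and a few further members are named only. Uracil, the 5′ base found most often in mature miRNAs, opened 36.9% of the members' sequences, against 41.7% of the other RefSeq sequences. It opened 33.3% in detected members and 44.2% in members with no read. These are shares of sequences, and the arms of 1 hairpin are not independent.

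A seed was shared with another gene by 33 mature sequences of 32 members. This includes copies of the same mature sequence, as in Mir3074-1 and Mir3074-2, and the count was not taken for other genes. The first 2 pairs below are within the group, and the last 2 pairs join a member to an earlier-numbered gene (seed in capitals).
miR-3064-5p: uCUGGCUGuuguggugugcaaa
miR-3085-3p: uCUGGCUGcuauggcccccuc
miR-3059-5p: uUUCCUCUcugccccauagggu
miR-5616-5p: uUUCCUCUcaucacaaguuga
miR-3475-5p: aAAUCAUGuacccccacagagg
miR-96-3p: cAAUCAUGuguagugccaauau
miR-3102-5p: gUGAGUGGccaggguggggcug
miR-702-5p: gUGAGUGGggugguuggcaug

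The levels of the genes in these 4 pairs are given for the pairs shown only. Mir3064 had a mean of 7.82 CPM and Mir3085 one of 0.372 CPM. Mir3059 and Mir5616 were both under 1 CPM, at 0.915 and 0.458 CPM. Mir96, a gene of sensory epithelia, stood at 828 CPM against 4.89 CPM for Mir3475, and Mir702 at 13.5 CPM against 61.3 CPM for Mir3102. These are levels of genes, not of the arm that carries the seed.

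The hairpins of detected and other members differed little in predicted folding. The median minimum free energy per nt was -0.454 kcal/mol in the 34 detected members, -0.451 in the 84 others and -0.434 in the other detected genes. In the 39 members with no read it was -0.407 kcal/mol per nt. Hairpins of members had a median length of 79 nt and a median G and C content of 53.4%, against 92 nt and 50.65% in the other genes with a symbol, and 82 nt and 51.25% in the other numbered genes.

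Agreement between the 2 pools could be read for 30 of the 118 members, those with a mean count of at least 10. For these the ratio of replicate 2 over replicate 1 was taken with an exact interval for counting error. Of the 30, 28 (93.3%) were within 2-fold, as were 349 of 378 of all genes (92.3%). So were 155 (85.6%) of the 181 other genes with a mean count from 10 up to that of the highest member. The median size of the log2 ratio was 0.33 in members and 0.28 in all genes. Across these 30 genes the log2 CPM correlated with a Pearson coefficient of 0.955 and a Spearman coefficient of 0.889. The coefficients were 0.991 and 0.986 over all 378 genes, and 0.939 and 0.934 over the 181 other genes. They are given as a description, since genes of the same 2 libraries are not independent.

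Mir3057 and Mir5133 were apart, that is, at least 2-fold with an interval clear of equality. That is 2 of 30 members, and the same was true of 6.35% (24) of the 378 genes. It was true of 21 of the 181 other genes with a mean count from 10 up to that of the highest member. Mir3057 was higher in replicate 2, at 12.6 against 6.05 CPM, a log2 ratio of 1.06 (interval 0.51 to 1.63). Mir5133, in an exon of Glce, a gene of heparan sulfate synthesis, had 9 reads in replicate 1 and 18 in replicate 2, a log2 ratio of 1.34 (0.11 to 2.68). Both calls rest on the scaling. With edgeR's TMM the log2 ratio of every gene fell by 0.13 and with DESeq2's size factors by 0.16, after which 0 of 3 members called apart were higher in replicate 2. These were Mir3061, Mir3962 and Mir5626, at log2 ratios of -1.06, -1.08 and -1.11 with TMM, while Mir3057 came to 0.93 and Mir5133 to 1.21 with an interval that reached equality.

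Without the fold limit, the interval was clear of equality in 8 of 30 members (26.7%), against 58.7% of all 378 genes, whose counts are larger. It was clear in 42.0% of the 181 other genes with a mean count from 10 up to that of the highest member. Counts differ within that range too: 99 of the 181 reached 10 CPM in both libraries, against 8 members. An interval narrows as counts rise, so these shares do not compare agreement at equal counts. Higher in replicate 2 were Mir5099 (log2 ratio 0.26), Mir3102 (0.39), Mir3081 (0.86), Mir3057 and Mir5133. Lower were Mir3105 (-0.54), Mir3061 (-0.93) and Mir3962 (-0.95). So 5 of 8 (62.5%) leaned to replicate 2, and with TMM or DESeq2's size factors 2 of 7 (28.6%) did. Among all genes the share went from 71.2% to 48.7% with TMM, which shifts every ratio by the same amount.

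**Figure D5:**
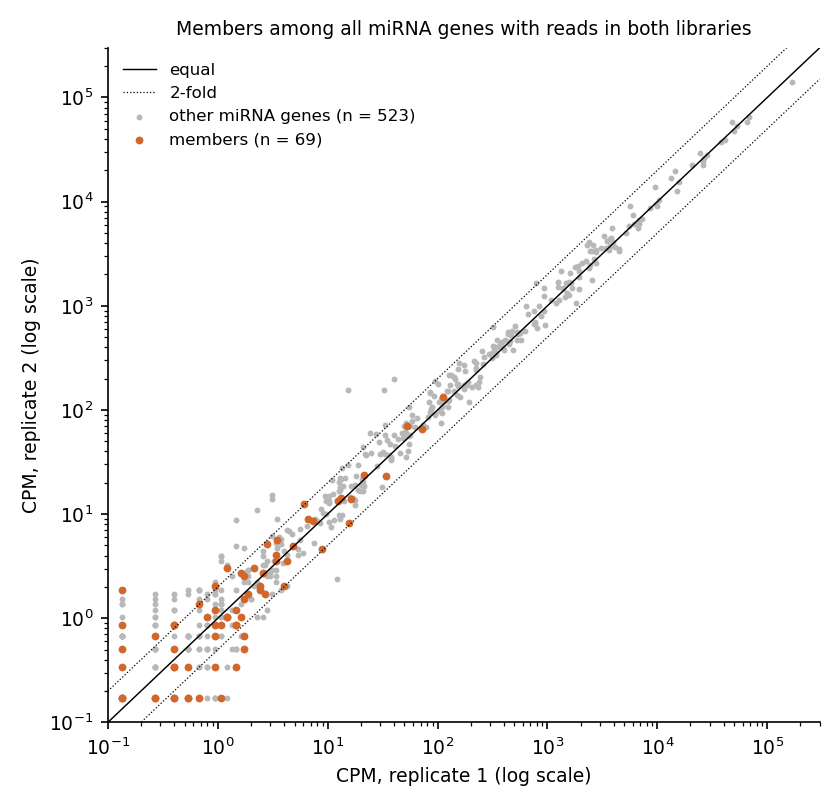
CPM in replicate 1 against replicate 2, both on log scales, of the 69 members (orange) and 523 other genes (grey) with at least 1 read in each library, with lines for equal and 2-fold different levels. The members lie in the lower part of the plot, up to Mir5099 at 111 and 133 CPM, and spread more at a few reads.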

How the data were processed

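Raw read counts per gene were deposited by the authors for 2 small RNA libraries, per the notes deposited beside the files, which name mm10 and GENCODE M4. Aligner and counter: not given in the sources used here. Counts without regard to strand equal the sum of both strands in every gene. The own-strand count was used, over the sum of all genes' own-strand counts (lines for unassigned reads left out: 3.71% and 5.20% of all reads fell in no gene). Names, locations and hairpins came from GENCODE M21 (GRCm38) by gene ID, mature sequences from RefSeq. The members, lists and limits were chosen with earlier results of these data known. Intervals are exact Clopper-Pearson at 95%, for counting error only (reads carry no molecular identifiers), and their script was tested on simulated data. With 1 group there is no test and no p-value. Genes named are the 20 highest members, those apart, those opposite another miRNA gene with a read, full-intron hairpins with a mean count of 10, and examples chosen after their values were seen. Mir3073a, opposite Mir3073b (not analysed here), had 2 reads and 0. Tools were Python 3.11.15, scipy 1.17.1, R 4.3.3, edgeR 4.0.16, DESeq2 1.42.0 and RNAfold 2.7.2. Alternatives were the scaling, the thresholds, the strand, shared sequences and each library alone.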

Additional observations from a re-analysis of the deposited data

Results flagged for a closer look

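Reads on the strand opposite Mir3074-1, outside the own-strand counts used above, came to 514 in replicate 1 and 363 in replicate 2, well above the limit of 3 counts that a count of 0 allows. The other members had at most 2 and 1 such reads. The assignment of the reads opposite Mir3074-1 to the overlapping Mir24-1 or 2010111I01Rik was not tested.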

How the results depend on the processing

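The 34 detected members became 21 when CPM was taken over all lines of the tables, unassigned reads included, and 12 at a threshold of 5 CPM. The count was 31 with TMM, with DESeq2's size factors or with both strands counted, 45 at 0.5 CPM, 47 at 1 CPM in either library, 32 without genes that share 20 nt, and 39 and 42 with replicate 1 or replicate 2 left out. The mean share of 0.0468% became 0.0234% over all lines, 0.0522% with both strands, 0.0346% without Mir5099 and 0.0396% without members sharing 20 nt, and it ranged from 0.0457% to 0.0479% with a library left out. The 2 members apart became 4 at a mean count of 5, 1 at a mean count of 50, 5 at 1.5-fold, 0 at 3-fold and, added after seeing the data, 8 with no fold limit. They became 3 with TMM or DESeq2's size factors. Leaving out a library gives no ratio. Hosts numbered 101 on either strand and 83 with protein-coding genes only, against 87. No paired analysis was possible because the study has 1 group. At this depth 49 members with a read had a mean count under 10 and got no ratio call.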

Other observations

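Among the 49 members with a read but a mean count under 10, 10 had reads in 1 library only, 6 in replicate 1 and 4 in replicate 2. In 3 of the 49 the interval of the ratio was clear of equality, and these are named after their values were seen. Neither count was taken over all genes with a mean count under 10, so both describe these members only. Mir5104, in an intron of Zc3h12d, had 11 reads in replicate 1 and 0 in replicate 2. Mir5114, within a coding exon of the fatty acid desaturase gene Scd2, had 1 and 11 reads. Mir5135, opposite Plekhg3, had 0 and 5 reads. The 118 members lie on 20 chromosomes, most often on chromosome 11 with 11 members, and chromosomes 7 and X with 10 each.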
